A study of Mus musculus with 24 samples.

Results

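Mogroside V, a sweet-tasting triterpene glycoside of monk fruit, was applied to adult mouse hypothalamic cells grown in 2 glucose media, and the question addressed here is which expression differences between the media became smaller or larger when the compound was present. The measure is a difference of differences: the effect of treatment in high glucose minus the effect of treatment in normal glucose, which equals the medium difference in treated cells minus the medium difference in control cells. It rests on 23 of the 24 deposited libraries, because the files of HG2 replicate 3 and HG3 replicate 2 were identical on all 56946 lines and that library was counted once. The treated cells in high glucose (HG1, HG2 and HG3 pooled) gave 8 libraries, their controls (HGC) gave 3, the treated cells in normal glucose (NG1, NG2 and NG3 pooled) gave 9, and their controls (NGC) gave 3.

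The series design gives doses of 15, 60 and 160 µM, but no label ties the group numbers 1 to 3 to them, so they are called dose labels. C in a title was read as untreated control, and whether these controls received a vehicle is not in the labels. All groups share the same line of hypothalamic cells, for which no clone, sex or strain is given. The labels do not say whether the replicates of a group are separate cultures, so every p-value refers to the spread between libraries, which may be technical. An interaction above 0, on the log2 scale, means that the treated-minus-control difference was higher in high glucose, and 1 unit is a 2-fold change.

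As background, the hypothalamus holds neurons and glia that sense circulating glucose. In cultured cells, glucose supply is known to alter lipid synthesis, lysosome production and ribosome production. Transcription factors of the MiT/TFE family, such as TFEB, drive genes of lysosomal enzymes and of the proton pump that acidifies the lysosome, while ribosome assembly depends on nucleolar factors that process and modify ribosomal RNA.

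The libraries held 3272671 to 7773074 gene counts, with a median of 3852720, and 12940 genes passed the filter on low counts. Library NG3_3 stood apart from the rest: it had the fewest genes with a count (16535), a coordinate of -48.9 on the first principal component against -14.8 to 19.3 in the others, and a sample weight of 0.285 in a weighted fit. The next lowest weight, 0.632, was that of HGC_2, a high-glucose control. Its coordinate on the second principal component was -20.25, against -4.43 in HGC_1 and -3.07 in HGC_3. Neuron markers were sparse, since 8 of 20 passed the filter, Elavl4 and Slc32a1 were at 0 in every library, and the list summed to 148 to 195 CPM, which is counts scaled to a library of 1e+06. Fibroblast and pericyte markers summed to 6277 to 8905 CPM, with 11 of 14 tested, so the label "neuronal" of the series design is not matched by abundant neuronal transcripts. In bulk libraries such as these, fewer cells of a type and less RNA per cell cannot be told apart.

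Treatment and medium interacted in 4 genes, and in each the medium difference had opposite signs in treated and control cells. Celf4, an RNA-binding protein best known from neurons, had a treated-minus-control difference above 0 in high glucose and below 0 in normal glucose, and Itm2c, Ly6a and Cyp4v3 showed the opposite arrangement. These 4 of 12940 tested genes (0.0309%) passed an adjusted p of 0.05 in edgeR's quasi-likelihood test of the interaction, 1 upward (0.00773%) and 3 downward (0.0232%), and 1099 genes had an unadjusted p below 0.05. Without NG3_3 the count was again 4, and they were the same 4 genes.

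Celf4 had 118, 128 and 144 CPM (lowest, median and highest of 8) in treated cells in high glucose, against 105, 83.2 and 105 CPM in the high-glucose controls. Its 9 treated libraries in normal glucose had 97.7, 108 and 129 CPM, against 150.2, 148 and 148 CPM in the controls. Every treated library therefore lay above its controls in high glucose and below them in normal glucose, with no overlap in either medium. The means were 131 ± 8.83 CPM in treated cells (SD, n = 8) and 97.9 ± 12.7 CPM in controls (SD, n = 3) in high glucose, and 111 ± 12.2 CPM in treated cells (SD, n = 9) and 149 ± 1.13 CPM in controls (SD, n = 3) in normal glucose. The medium difference was 0.24 (log2) in treated cells and -0.61 in controls, and the interaction was 0.84 ± 0.14 (SE), with a 95% interval of 0.56 to 1.13 and an adjusted p of 0.00435 in edgeR. Without NG3_3 it was 0.82 ± 0.13 (adjusted p = 0.00176). It passed in 22 of 23 fits that each left out 1 library and missed the threshold without HGC_2, at 0.73 and an adjusted p of 0.0984. In the GENCODE M21 annotation Celf4 overlaps the antisense genes Gm3227 and 0710001A04Rik, and their reads cannot be told from its own, since no source used here says whether strand was used in counting.

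Itm2c encodes a BRICHOS-domain membrane protein that binds the amyloid precursor protein. It had 106, 111 and 116 CPM (lowest, median and highest of 8) in treated cells in high glucose, against 137, 127 and 149 CPM in the controls of that medium. With normal glucose, Itm2c had 115, 124 and 152 CPM in treated cells, against 86.2, 103 and 108 CPM in the controls. Treated libraries lay below all controls in high glucose and above all controls in normal glucose. The medium difference was -0.23 in treated cells and 0.47 in controls (log2), and the interaction was -0.70 ± 0.14 (SE; 95% interval -0.98 to -0.43; adjusted p = 0.0400 in edgeR, and 0.0166 without NG3_3).

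Ly6a encodes a GPI-anchored surface protein, also called Sca-1, that marks several progenitor cells and responds to interferon. It had 60.8, 68.2 and 75.6 CPM in treated cells in high glucose, against 83.5, 93.0 and 82.4 CPM in the high-glucose controls. In normal glucose the treated libraries had 71.9, 109 and 122 CPM, against 70.7, 77.8 and 75.1 CPM in the controls. The groups did not overlap in high glucose, and in normal glucose 8 of the 9 treated libraries lay above all controls, the exception being NG3_1. The medium difference was -0.60 in treated cells and 0.21 in controls, and the interaction was -0.81 ± 0.17 (SE; 95% interval -1.15 to -0.48; adjusted p = 0.0447 in edgeR, and 0.0219 without NG3_3). Ly6a belongs to a family of similar neighbouring genes, so its counts are uncertain to the extent that reads were shared with them.

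Cyp4v3, whose human counterpart CYP4V2 hydroxylates fatty acids, was the least abundant of the 4. It had 5.82, 8.19 and 11.7 CPM in treated cells in high glucose, against 16.2, 16.1 and 12.2 CPM in the controls. Treated cells in normal glucose had 6.90, 9.59 and 11.7 CPM, against 5.48, 5.82 and 4.28 CPM in the controls. The controls of the media were far apart, whereas the treated libraries of both media covered nearly the same range. The control difference of 1.51 (log2; 2.85-fold) stood against -0.18 in treated cells, and the interaction was -1.69 ± 0.35 (SE; 95% interval -2.39 to -0.99; adjusted p = 0.0447 in edgeR, and 0.0219 without NG3_3). In GENCODE M21 Cyp4v3 overlaps Gm45753 on the same strand.

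**Figure D1:**
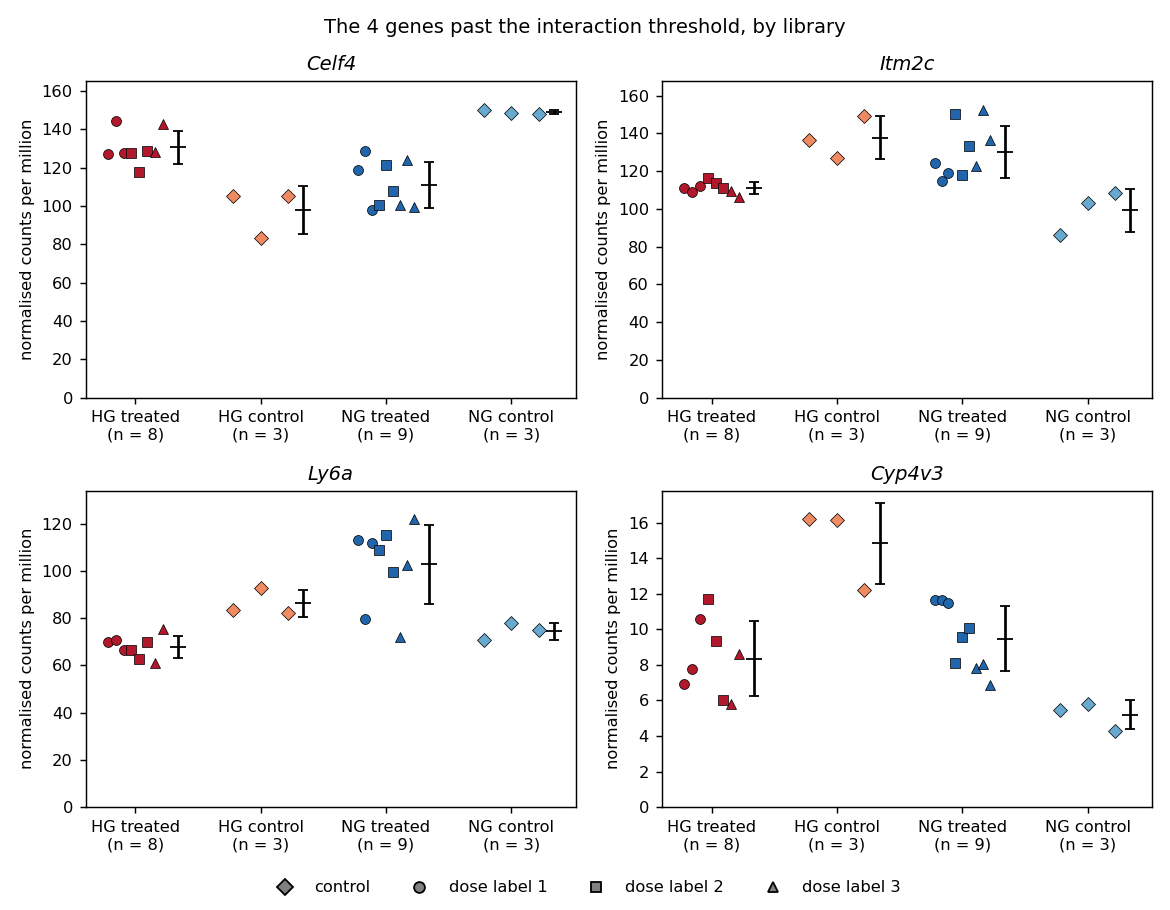
Normalised CPM (vertical axes, from 0) of Celf4, Itm2c, Ly6a and Cyp4v3 in each of 23 libraries, by group; marker shapes give the dose label, and the bars beside each group give the mean and SD. For Celf4 the treated libraries sit at 118 to 144 in high glucose, above controls at 83.2 to 105, and at 97.7 to 129 in normal glucose, below controls at 148 to 150.2.

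No dose label alone passed the test. The 4 genes were chosen on these same libraries, so the values by dose label are a description only. All fits by dose label, here and below, left out the library deposited as both HG2 and HG3. With that library left out, the pooled test called 1 gene, Celf4. For Celf4 the interaction was 0.82, 0.76 and 0.92 at dose labels 1, 2 and 3. For Cyp4v3 it was -1.98, -1.33 and -1.60, for Ly6a -0.77, -0.96 and -0.76, and for Itm2c -0.59, -0.71 and -0.83. The medium difference in treated cells kept the sign opposite to that of controls at each dose label for Celf4, Ly6a and Itm2c, whereas that of Cyp4v3 was 0.18 at dose label 2, on the same side as its controls. These estimates share the 6 control libraries and the adjusted p-values ran from 0.121 to 0.564. The number of genes called was 0 at each dose label in edgeR, with 981, 833 and 1070 genes at an unadjusted p below 0.05.

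All 4 called genes had control libraries that did not overlap between the media, which held for 18% of all tested genes, and 3 of 4 did not overlap between treated and control libraries in normal glucose, against 1.47% of all genes. The genes were chosen on these same libraries, so these counts are descriptive. Leaving out any 1 of several libraries moved the 3 negative genes to adjusted p-values of up to 0.291, with little change in the estimates. Itm2c passed in 12 of 23 such fits, with estimates of -0.78 to -0.61, and missed without any 1 of NGC_1, NGC_2, NG2_1, HGC_1, HGC_2, HGC_3, HG1_1, HG1_2, HG2_2, HG2_3 and HG3_1. Ly6a passed in 8 of 23, with estimates of -0.87 to -0.76, and Cyp4v3 in 7 of 23, with estimates of -1.81 to -1.58. Ly6a kept the call without any 1 of NGC_3, NG1_2, NG2_2, NG2_3, NG3_1, NG3_2, NG3_3 and HG3_3, and Cyp4v3 without any 1 of NG1_2, NG2_2, NG3_1, NG3_2, NG3_3, HG1_3 and HG2_1.

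The genes next in line did not pass. The 10 positive ones with the lowest p included Dkc1 (the dyskerin pseudouridine synthase), Nemf (ribosome-associated quality control), Dnajc2 (a ribosome-bound chaperone), Mrps31 and Mrps5 (mitochondrial ribosomal proteins) and Pabpc4 (a poly(A)-binding protein). Nemf had an interaction of 0.68 ± 0.16 (SE; adjusted p = 0.120), Mrps31 of 1.04 ± 0.25 (adjusted p = 0.143) and Pabpc4 of 0.59 ± 0.15 (adjusted p = 0.143). The others were Cnih4, Mphosph8, Cycs (cytochrome c) and the processed pseudogene Gm15427, with interactions of 0.56, 0.83, 0.82 and 1.16. The counts of Gm15427 are uncertain to the extent that reads were shared with its parent gene.

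Among the negative ones, Dda1, a subunit of cullin-4 ubiquitin ligases, came closest at -0.88 (95% interval -1.26 to -0.49; adjusted p = 0.0989). The BMP antagonist Nbl1 had 42.0, 53.4 and 62.4 CPM in treated cells in high glucose, against 57.1 to 64.8 CPM in controls. In normal glucose it had 40.2, 46.8 and 59.4 CPM in treated cells, against 30.8 to 32.8 CPM in controls. Treated and control libraries overlapped in high glucose and did not overlap in normal glucose. Its interaction was -0.78 (-1.14 to -0.42; adjusted p = 0.120). Scd2, a fatty acid desaturase, had a medium difference of 0.21 in treated cells and 0.71 in controls, both called, and an interaction of -0.50 (-0.75 to -0.25; adjusted p = 0.143). Lxn, a carboxypeptidase inhibitor, was at 0.21 in treated cells and 0.83 in controls, and Pxylp1, a phosphatase of glycosaminoglycan synthesis, at 0.48 and 1.37, with interactions of -0.62 and -0.89. The protocadherin Fat4, Trafd1, Nacad and 1700017B05Rik had interactions of -1.62, -0.73, -1.26 and -0.72.

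Treatment on its own called few genes in the main edgeR fit. In high glucose 0 of 12940 genes passed in edgeR (0%), with 691 at an unadjusted p below 0.05, and DESeq2 also called 0. In normal glucose 2 genes (0.0155%) fell, and both act in the nucleolus: Dkc1 by 0.51 ± 0.10 (log2, SE) and Esf1, a pre-ribosomal RNA processing factor in yeast, by 0.53 ± 0.10, each at an adjusted p of 0.0332. In that medium 1063 genes had an unadjusted p below 0.05 in edgeR, and DESeq2 called more genes than edgeR did, as given below. Dkc1 had 103, 139 and 150 CPM (lowest, median and highest of 9) in treated cells in normal glucose, against 227, 175 and 168 CPM in the controls, with no overlap. In high glucose it had 157, 169 and 187 CPM in treated cells, against 150.4, 168 and 153 CPM in controls, and these ranges overlapped. The difference between media in the response of Dkc1 did not pass (interaction 0.63 ± 0.15; 95% interval 0.34 to 0.93; adjusted p = 0.120). Esf1 had an interaction of 0.52 (0.21 to 0.82; adjusted p = 0.208), and it was named as 1 of a count of 2. Without NG3_3 treatment called 7 genes in normal glucose and again 0 in high glucose.

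The medium itself changed far more genes. In an additive fit of medium and treatment, 1343 genes (10.4%) differed between the media, 828 of them higher in high glucose (6.4%) and 515 lower (3.98%). In treated cells alone 1192 genes (9.21%) passed, 748 higher in high glucose (5.78%) and 444 lower (3.43%). In controls alone 294 passed (2.27%), 244 higher (1.89%) and 50 lower (0.386%). The treated difference rests on 17 libraries and the control difference on 6, so these counts differ in precision: the median standard error of a medium difference was 0.138 in treated cells and 0.231 in controls, and that of an interaction was 0.269. Without HGC_2, NGC_1 or NGC_2 the control count was 165, 169 and 177.

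Among genes called for the medium, differences were smaller in treated cells about as often as they were larger. Genes were picked by the additive fit, which weights both differences by their precision, and "shrank" means an interaction of opposite sign to the medium difference. A gene whose difference reverses with treatment can average out in that fit, so the set can miss it. Celf4, Itm2c and Cyp4v3 fell outside the set, with adjusted p-values of 0.939, 0.780 and 0.431 for the additive medium difference in edgeR. Of the 1343 medium genes 642 shrank (47.8%) and 701 grew, and over all 12940 tested genes the share that shrank was 45.9%. Without NG3_3 735 of 1501 shrank (49.0%). Genes higher in high glucose shrank in 436 of 828 cases (52.7%), with a median difference of 0.42 in treated cells and 0.45 in controls (log2). Genes lower in high glucose shrank in 206 of 515 cases (40%), with medians of -0.39 and -0.32. Among 82 genes with a difference of at least 2-fold, 50 shrank (61%). Of the 1343 genes, 172 had an unadjusted interaction p below 0.05, 82 of them shrinking, and 1 (Ly6a) was called.

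**Figure D2:**
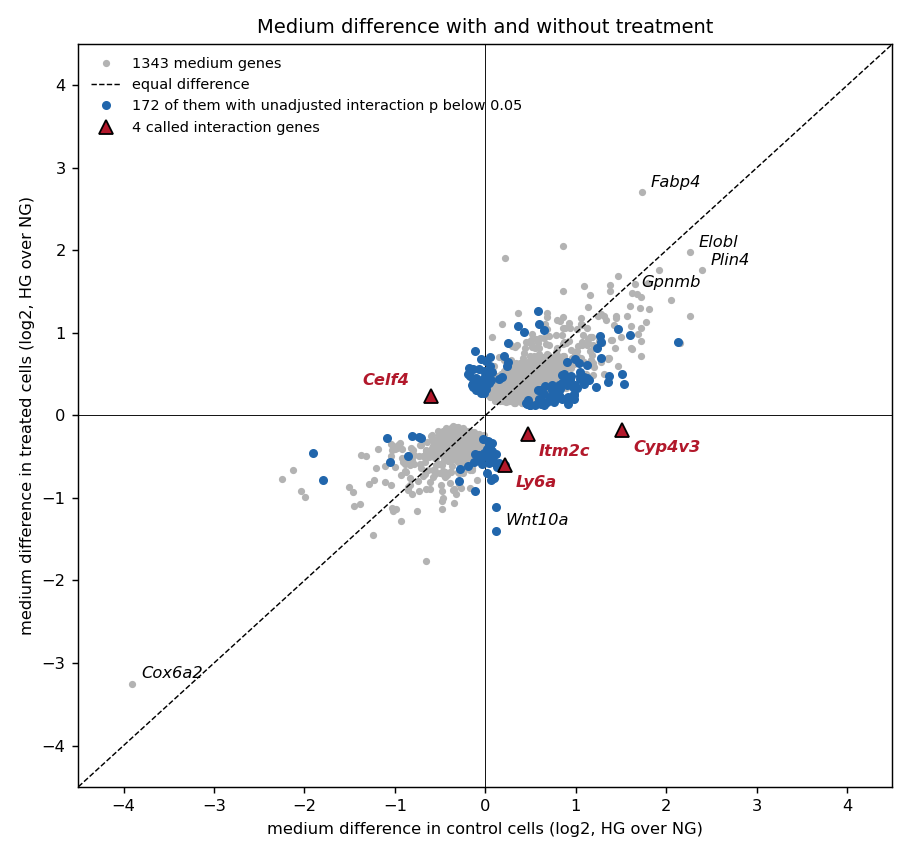
Medium difference in treated cells (vertical axis, log2 of high over normal glucose) against that in control cells (horizontal axis) for 1343 medium genes, with 172 of unadjusted interaction p below 0.05 in blue and the 4 called interaction genes as red triangles. Points fall on both sides of the dashed line of equal difference, and the 4 called genes lie in the quadrants of opposite sign.

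The largest medium differences had the same direction in treated and control cells, apart from that of Wnt10a. Fabp4, a fatty acid carrier of lipid-laden cells, had 9.08, 13.7 and 21.4 CPM in treated cells in high glucose and 0.739, 1.64 and 4.29 CPM in treated cells in normal glucose. Its controls had 12.4, 7.58 and 7.86 CPM in high glucose, against 1.96, 1.21 and 5.23 CPM in normal glucose. The media did not overlap with or without treatment. The fitted difference was 6.50-fold in treated cells and 3.32-fold in controls, and the interaction was 0.97, with a 95% interval of -0.13 to 2.07. It was 0.20 without NGC_3, and 1.92 at dose label 1 against 0.34 at dose label 3. Fabp4 was the only 1 of the 8 largest rises with a positive estimate.

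Plin4, which coats lipid droplets, differed by 1.76 in treated cells and by 2.39 in controls (log2), and its interaction was -0.63 (-1.43 to 0.17), or -1.40 without NGC_3 and -0.24 without NGC_1. Gpnmb, a lysosomal glycoprotein and a known target of MiT/TFE factors, differed by 1.48 and 1.62, and its interaction was -0.14 (-0.71 to 0.43). The trophic factor Gdnf differed by 1.21 in treated cells and 2.26 in controls, with an interval of -2.28 to 0.17 for the interaction. Wnt16, the glucosamine-6-phosphate isomerase Gnpda1 and the noncoding RNA Gm45353 had interactions of -0.41, -0.20 and -0.52. Elobl, at -0.28, is nearly identical to the elongin subunit gene Elob, so its counts are uncertain.

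Cox6a2, the muscle isoform of a cytochrome c oxidase subunit, had 0.278, 2.36 and 5.30 CPM in treated cells in high glucose and 15.8, 23.8 and 35.5 CPM in treated cells in normal glucose. Its controls lay at 0.489 to 3.51 CPM in high glucose, against 21.5 to 28.4 CPM in normal glucose. The media were apart with and without treatment, by -3.25 in treated cells and -3.91 in controls (log2), and the interaction was 0.66 (-0.54 to 1.85). It ran from 0.18 without HGC_2 to 1.71 without HGC_1, and was 1.36, 0.39 and -0.51 at dose labels 1, 2 and 3. The YAP target Ccn1 differed by -0.92 and -1.46, and the cytokine Il11 by -0.78 and -1.80, with interactions of 0.54 and 1.02. Wnt10a departed from this: it had 0.779, 2.30 and 3.90 CPM in treated cells in high glucose, below all 3 high-glucose controls at 4.32 to 5.82 CPM. In normal glucose it had 2.71, 6.14 and 8.83 CPM in treated cells, against 3.15 to 6.27 CPM in controls, and its interaction of -1.52 (-2.57 to -0.47) had an adjusted p of 0.332. Spire2, Card10, Gm17036 and the gene ENSMUSG00000120594, which has no symbol, had interactions of 1.01, -0.08, -0.39 and 0.64 with intervals that included 0. Gm17036 lies antisense to Kif5b, and in GENCODE M21 Spire2 and Gm45353 overlap Gm20388 on the same strand. Other genes named here also overlap annotated genes, and not every overlap is given.

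**Figure D3:**
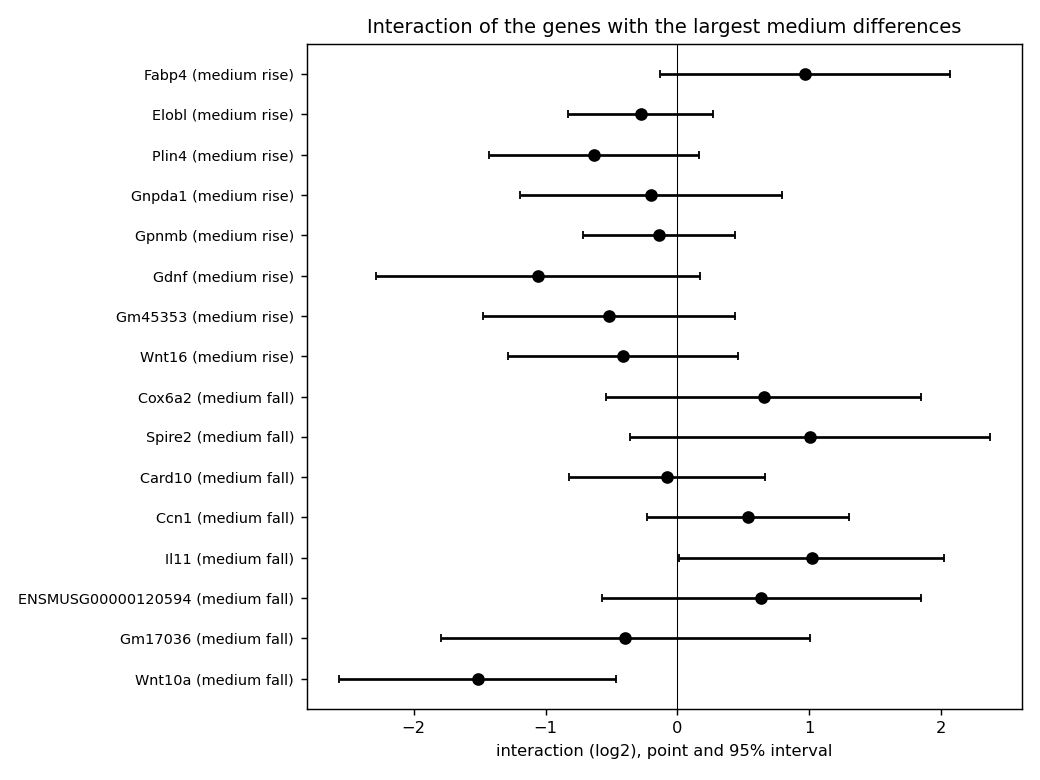
Interaction estimates (log2, horizontal axis) with 95% intervals for the 8 largest rises and 8 largest falls between media. The intervals of Il11 (0.01 to 2.03) and Wnt10a (-2.57 to -0.47) exclude 0, neither passed after adjustment, and the other 14 include it.

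Genes of the lysosome had smaller estimates of the medium difference in treated cells than in controls. Of 26 tested hydrolases and membrane proteins, 15 were called higher in high glucose in treated cells (5.78% of all genes) and 13 in controls (1.89% of all genes), and none was called lower. The median difference was 0.37 in treated cells and 0.68 in controls (log2). The interaction estimate was below 0 in 24 of 26 members, against 6390 of all 12940 genes, with a median of -0.21 (0.01 over all genes). No member passed in the main edgeR fit, and 4 had an unadjusted p below 0.05. The median was -0.20 without NG3_3, and -0.13, -0.22 and -0.25 at dose labels 1, 2 and 3. Over fits that each left out 1 library it ran from -0.27 (without NGC_3) to -0.13 (without NGC_1).

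The list's median treatment effect was -0.03 in high glucose and 0.18 in normal glucose, and no member passed in either. Averaged over the members and centred on all libraries, the list's level was 0.13, 0.20 and 0.35 (log2 CPM; lowest, median and highest) in treated cells in high glucose, against 0.22, 0.28 and 0.33 in the controls. In normal glucose it was -0.29, -0.18 and 0.06 in treated cells, against -0.48, -0.31 and -0.23 in the controls. The media did not overlap with or without treatment, while treated and control libraries overlapped within each medium. The highest treated library in normal glucose was NG3_3.

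Lamp2, a major membrane protein of lysosomes, had a medium difference of 0.37 in treated cells and 0.74 in controls, and an interaction of -0.37. Hexa, the alpha subunit of hexosaminidase, had 0.61 in treated cells and 1.12 in controls, and an interaction of -0.51. Psap, the precursor of the saposins, had -0.04 and 0.68, neither called.

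A sequence feature shared by part of this list is the E-box read by MiT/TFE factors. The motif CACGTG, searched in the 250 bases before RefSeq gene starts (it reads the same on both strands), was found for 10 of the 22 members with a promoter (45.5%), against 6.86% of all 27025 genes with one. The longer TCACGTGA, which contains it, was found for 5 of 22 (22.7%), against 0.907% of all genes, and for none of 21 ribosome biogenesis genes. The median interaction was -0.15 for the 10 members with CACGTG and -0.19 for the 12 without it. For TCACGTGA it was -0.24 for the 5 members with it and -0.18 for the other 17, so the 2 splits ran in opposite directions. Of 14 genes of the proton pump and its factors with a promoter, 2 held CACGTG, at a median of -0.19 against -0.11 for the other 12. The windows that hold TCACGTGA are shown because they are the regulatory letters the list is known for, with the motif in capitals, 5′ to 3′ along the gene, in RefSeq coordinates of GRCm38.p6: chr2:164833730-164833772 (plus strand) for Ctsa, chr7:142387889-142387956 (minus) for Ctsd, chrX:134601196-134601255 (minus) for Gla, chr8:3500443-3500510 (plus) for Mcoln1 and chr7:126583321-126583388 (minus) for Cln3.
Ctsa: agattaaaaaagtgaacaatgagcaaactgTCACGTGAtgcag
Ctsd: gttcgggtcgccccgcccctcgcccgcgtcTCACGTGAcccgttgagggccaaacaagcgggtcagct
Gla: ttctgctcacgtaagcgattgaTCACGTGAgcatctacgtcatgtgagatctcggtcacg
Mcoln1: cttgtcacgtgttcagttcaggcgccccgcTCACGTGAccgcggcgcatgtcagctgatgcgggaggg
Cln3: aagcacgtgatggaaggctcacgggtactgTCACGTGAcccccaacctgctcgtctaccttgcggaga
The first base of the motif lay 13, 99, 228, 46 and 122 bases before the gene start in this order. The medium differences of these genes in treated cells and in controls were 0.57 and 0.95 for the protective protein Ctsa, 0.51 and 0.58 for the protease Ctsd, 0.90 and 0.92 for the galactosidase Gla, 0.43 and 0.67 for the calcium channel Mcoln1, and 0.17 and 0.69 for the membrane protein Cln3.

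The vacuolar proton pump and its MiT/TFE factors had a median difference of 0.40 in treated cells and 0.52 in controls, with 13 of 18 members called higher in high glucose in treated cells (5.78% of all genes), 1 lower (3.43%), and 10 higher in controls (1.89%). The interaction was below 0 in 13 of 18, with a median of -0.12 and no call. Atp6v0b, a membrane subunit of the pump, had a medium difference of 0.49 in treated cells and 0.87 in controls and an interaction of -0.38 (-0.66 to -0.11; adjusted p = 0.359). Sterol synthesis and uptake genes differed by a median of 0.56 in treated cells and 0.70 in controls, with 20 of 24 called higher in treated cells (5.78% of all genes), 15 in controls (1.89%) and none lower. Their interaction was below 0 in 19 of 24 (median -0.10), with 1 unadjusted p below 0.05, that of mevalonate kinase Mvk at -0.42 (-0.83 to -0.02). The median was -0.04, -0.07 and -0.21 at dose labels 1, 2 and 3, and -0.14 to -0.07 over fits that each left out 1 library. The level of the sterol list, centred as above, was 0.08 in HG3_1, against 0.25 to 0.36 in the other treated libraries in high glucose. Hmgcs1, an early enzyme of the mevalonate route, differed by 0.65 in treated cells and 0.93 in controls, with an interval of -0.59 to 0.03 for the interaction. Of 14 fatty acid synthesis and desaturation genes 11 had an interaction below 0 (median -0.13), Scd2 and Fads1 (-0.36) with the lowest p.

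Genes of ribosome assembly showed the reverse, with a medium difference in treated cells and a median near 0 in controls. Of 26 ribosome biogenesis genes 7 were called higher in high glucose in treated cells (5.78% of all genes) and none in controls (1.89%), with medians of 0.22 and 0.01 (log2). The interaction was above 0 in 20 of 26, with a median of 0.18. Of the 26 genes 12 had an unadjusted p below 0.05, all positive, against 1099 of all 12940 genes (8.49%). None passed after adjustment in the main edgeR fit. The median was 0.17 without NG3_3, 0.04, 0.27 and 0.27 at dose labels 1, 2 and 3, and 0.15 to 0.23 over fits that each left out 1 library. The median treatment effect was 0.06 in high glucose and -0.21 in normal glucose.

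The level of this list, centred as above, was 0.03, 0.06 and 0.18 (log2 CPM) in treated cells in high glucose, against 0.01, 0.07 and 0.11 in the controls. In normal glucose it was -0.30, -0.08 and -0.02 in treated cells, against -0.02, 0.12 and 0.12 in the controls. Treated libraries of the media did not overlap, and the normal-glucose controls lay as high as the high-glucose libraries apart from the lowest of them. Wdr12, a subunit of the PeBoW complex of large-subunit assembly, had 53.2, 62.5 and 68.4 CPM in treated cells in high glucose, against 54.0, 62.6 and 45.1 CPM in the controls. With normal glucose, Wdr12 had 42.5, 46.5 and 51.4 CPM in treated cells, against 65.8, 63.8 and 57.8 CPM in the controls. All 9 treated libraries in normal glucose lay below their controls and below the treated libraries in high glucose. Its interaction was 0.61 (95% interval 0.28 to 0.94; adjusted p = 0.168). Nop14, of the small-subunit processome, stood at 0.50 in treated cells and -0.20 in controls, with an interaction of 0.69 (0.31 to 1.07; adjusted p = 0.181). The nucleolar proteins Nop58, Ddx21, Npm1 and Ncl had interactions of 0.58, 0.58, 0.31 and 0.23.

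**Figure D4:**
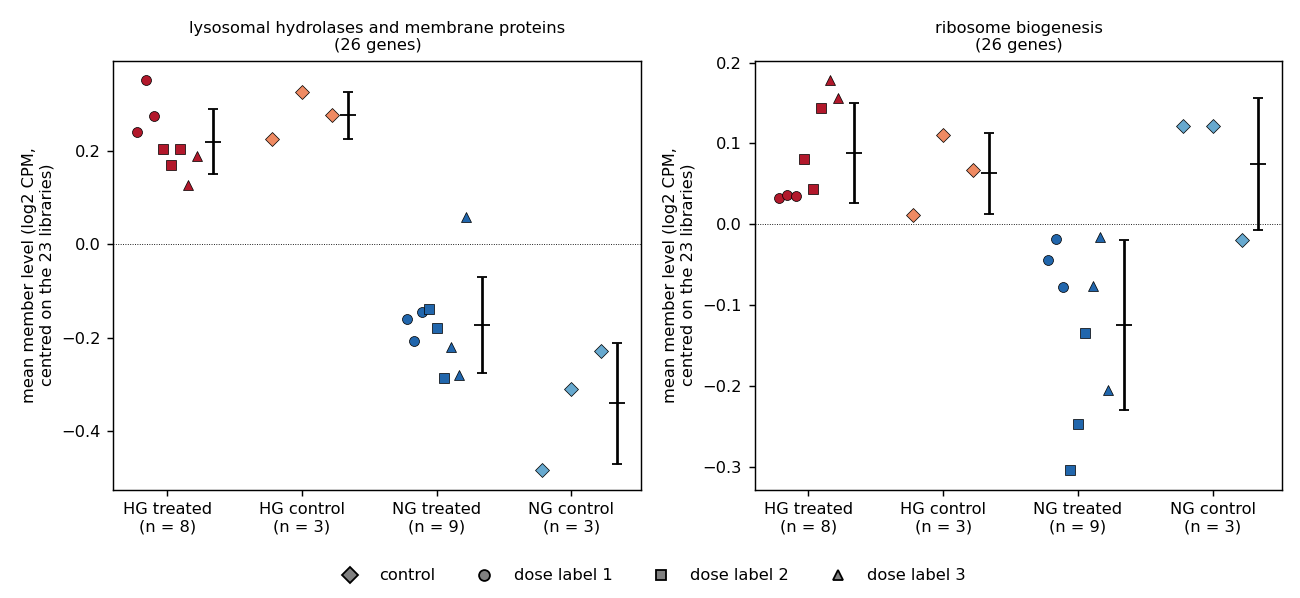
Mean level of 26 lysosomal genes (left) and 26 ribosome biogenesis genes (right) in each of 23 libraries (vertical axes, log2 CPM of the members centred on the 23 libraries), by group, with marker shapes for the dose label and bars for the mean and SD. Lysosomal levels of the media do not overlap in treated or in control libraries, and ribosome biogenesis levels of the media do not overlap in treated libraries.

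Cytosolic ribosomal proteins had interactions above 0 in 19 of 25 members (median 0.19), led by Rpl13 at 0.55 and Rpl4 at 0.56, with 5 of 25 called higher in high glucose in treated cells (5.78% of all genes) and none in controls (1.89%). The median was 0.0765 without NGC_2. In GENCODE M21 Rpl13 overlaps Gm20388 on the same strand. Ribosomal protein genes have many processed copies, so their counts are uncertain, and the medians were 0.37, 0.04 and 0.00 at dose labels 1, 2 and 3. Chaperones of the heat shock response had a median of 0.24, with 12 of 18 above 0. Hsp90aa1 and Hsp90ab1, the cytosolic HSP90 pair, had medium differences of 0.22 and 0.13 in treated cells, -0.23 and -0.29 in controls, and interactions of 0.45 (0.20 to 0.70) and 0.42 (0.16 to 0.67). Their co-chaperone Chordc1 was at 0.39, whereas the small heat shock protein Hspb1 was at -0.57. All 8 tested mitochondrially encoded genes had an interaction above 0 (median 0.31), the lowest p being those of mt-Nd4 at 0.53 (0.07 to 0.99) and mt-Cytb at 0.31 (0.01 to 0.61). The list holds 13 genes: mt-Co2, mt-Co3, mt-Atp8 and mt-Nd4l were at 0 in every library, and mt-Atp6 did not pass the filter. Why these counts were absent was not tested. No member of these lists passed in the main edgeR fit. The share of all gene counts that fell on mitochondrial genes was 6.85 to 7.70% in treated cells and 6.81 to 7.05% in controls in high glucose, and 5.43 to 7.77% in treated cells and 7.49 to 8.10% in controls in normal glucose, the lowest being NG3_3. The share includes the ribosomal RNA mt-Rnr2, which held 1.63 to 3.66% of gene counts across libraries. The part of the mitochondrial share in these differences was not tested.

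**Figure D5:**
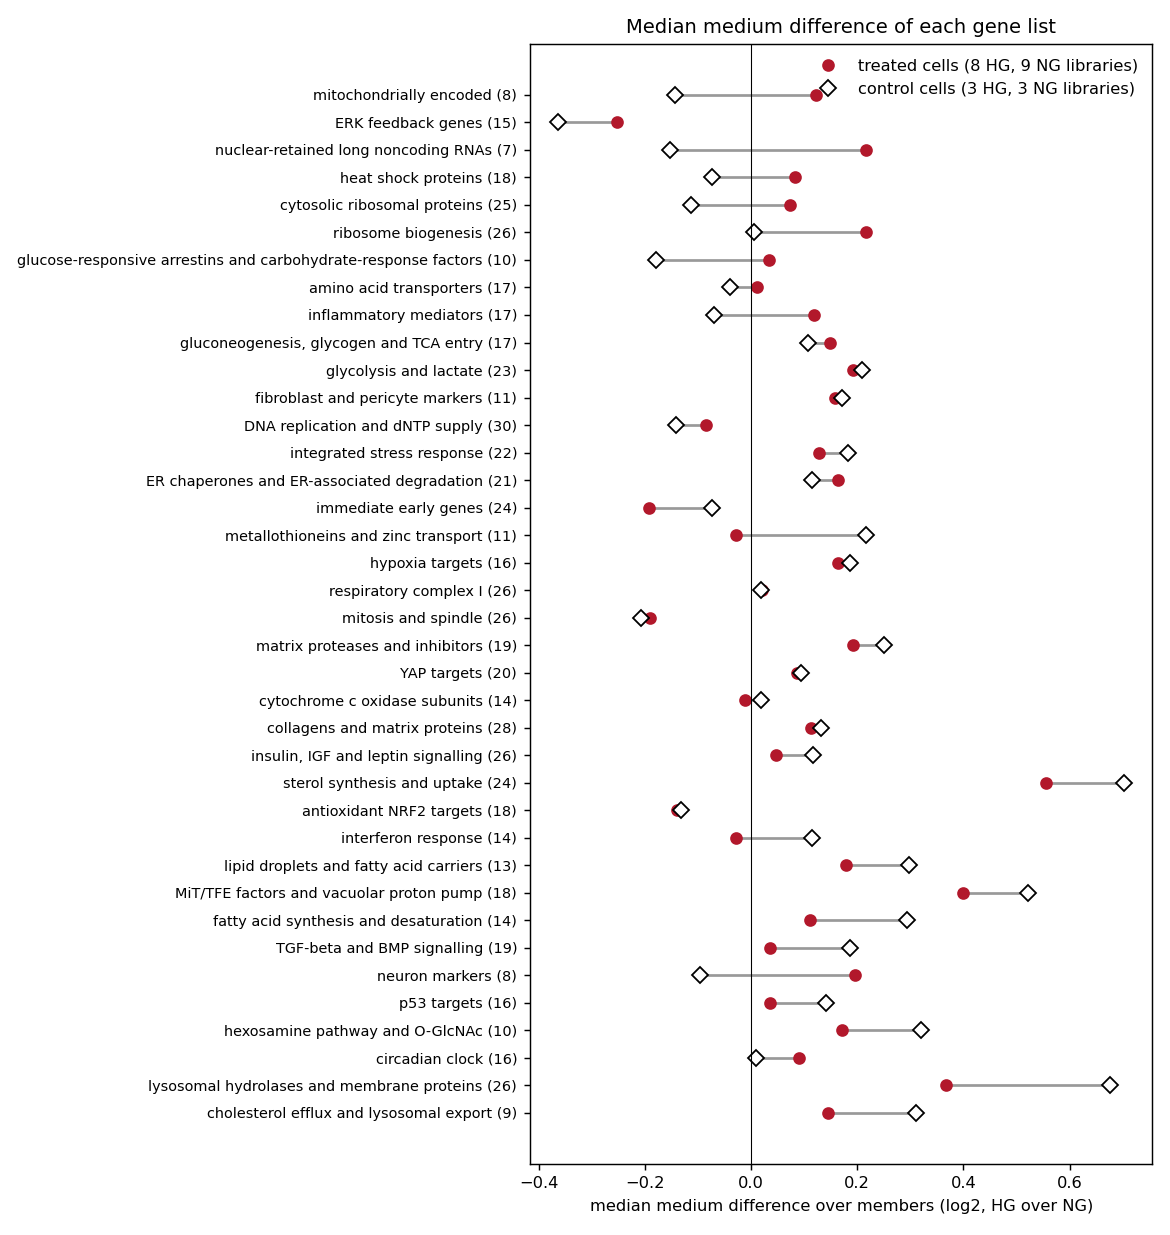
Median medium difference (log2 of high over normal glucose, horizontal axis) of gene lists with at least 7 tested members, in treated cells (red circles) and control cells (open diamonds), ordered by median interaction with the number of members in parentheses. Lysosomal genes lie at 0.37 in treated and 0.68 in control cells, and ribosome biogenesis genes at 0.22 and 0.01.

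Genes that respond to glucose supply gave no called interaction. Txnip, a glucose-induced arrestin that limits glucose uptake, had 72.3, 100.1 and 117 CPM in treated cells in high glucose, against 85.1, 72.4 and 69.9 CPM in the controls. With normal glucose, Txnip had 115, 134 and 195 CPM in treated cells, against 88.3, 119 and 168 CPM in the controls. The medium difference of Txnip was -0.59 in treated cells (called) and -0.72 in controls (not called), and its interaction of 0.13 had a 95% interval of -0.40 to 0.66. Its relative Arrdc4, the glucose transporter Slc2a1 and the hexokinase Hk2 had interactions of 0.42 (-0.47 to 1.31), 0.05 (-0.38 to 0.47) and 0.36 (-0.02 to 0.74). Hk2 was called higher in high glucose in treated cells (0.64) and not in controls (0.28). In 23 glycolysis genes the median interaction was 0.05, with 13 above 0.

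Irs2, which docks onto the activated insulin receptor, had 67.2, 80.8 and 103 CPM in treated cells in high glucose, against 113, 112 and 125 CPM in the controls. Treated cells in normal glucose had 46.6, 54.8 and 83.0 CPM, against 70.5, 64.0 and 48.3 CPM in the controls. Treated libraries lay below all controls in high glucose and overlapped them in normal glucose. The medium difference was 0.44 in treated cells and 0.93 in controls, both called, and the interaction was -0.50 (-0.98 to -0.01; adjusted p = 0.578). Of 26 insulin, IGF and leptin signalling genes 19 had an interaction below 0 (median -0.09), with Igfbp4, an IGF-binding protein, at -0.50 (-0.76 to -0.24; adjusted p = 0.153) and Stat3 at -0.37. The metallothionein Mt1 and the matrix protease Mmp3 were called higher in high glucose in both settings, Mt1 by 0.96 in treated cells and 1.27 in controls and Mmp3 by 1.05 and 1.46, with interactions of -0.30 (-0.56 to -0.05) and -0.42 (-0.73 to -0.11) that did not pass.

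No tested member of the marker lists for other cell types had a called interaction. Fibroblast and pericyte markers summed to 8086 to 8905 CPM in treated cells and 8367 to 8765 CPM in controls in high glucose, and to 6277 to 8440 CPM in treated cells and 7384 to 7805 CPM in controls in normal glucose. The interaction was above 0 in 6 and below 0 in 5 of the 11 tested members (median 0.04), and Pdgfrb had one of -0.39 (-0.65 to -0.13; adjusted p = 0.321). Astrocyte and tanycyte markers, nearly all of them Vim transcripts, summed to 3074 to 4100 CPM in treated cells and 3181 to 3540 CPM in controls in high glucose, and to 3315 to 3788 CPM in treated cells and 3958 to 4428 CPM in controls in normal glucose, so the normal-glucose controls stood above their treated libraries. Vim, an intermediate filament gene, had an interaction of 0.30 (0.05 to 0.54; adjusted p = 0.461). Of 8 neuron markers 3 were above 0 (median -0.15). In edgeR 1 of them was positive and 1 negative at an unadjusted p below 0.05. The negative one was Map2, at -0.39 (-0.75 to -0.03). Of 12 microglia and macrophage markers 4 passed the filter, Itgam was at 0 in every library, and Aif1, Trem2, P2ry12 and Ptprc were not tested. Of the 4 tested, 1 was above 0 (median -0.37), with Tmem119 at -0.37 (-0.65 to -0.09). Tmem119 made up most of this list, with 120 to 162 CPM in normal-glucose controls, where the list summed to 134 to 175 CPM. The part of cell make-up in the results above was not tested.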

How the data were processed

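Per the labels' protocols, DNase-treated RNA came from the PureLink kit, and the VAHTS Universal V8 kit was used for libraries of polyadenylated RNA. The authors deposited whole-number read counts per gene, 1 file per library, with no normalization. Per the submitters' processing notes, the build is GRCm39 and the tools include HTSeq 1.99.2 and STAR 2.7.5c, without a strand setting. A file has 56941 gene IDs, and its 5 summary lines from HTSeq were removed before library sizes were computed. Reads outside genes made up 14.4 to 20.6%, and reads without a unique alignment 16.5 to 18.9%. Symbols from GENCODE M21 matched 51948 IDs, which held 91.8% of gene counts.

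Libraries were grouped by title into 4 cells of a design without covariates: treated and control in each medium. The 23 distinct libraries were fitted with edgeR 4.0.16 in R 4.3.3 (TMM factors, default low-count filter, robust quasi-likelihood F tests), with a common biological coefficient of variation of 0.153 and 19 residual degrees of freedom. Benjamini-Hochberg adjustment covered all 12940 genes, at a threshold of 0.05. CPM values are counts scaled to a library of 1e+06 with TMM factors. A replicate block was not used in the main fit. Alternatives were DESeq2 1.42.0, limma 3.58.1 with sample weights, other scaling, no filter, 8 group means, other uses of the shared library, a replicate block, single dose labels and each library left out. Removal of GC and length trends, and of NG3_3 together with HGC_2, are among them, the GC and length fit having been chosen after seeing the data. The fit was also run on simulated data, and no outcome of that run is reported here.

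Genes named were the called ones, the 10 lowest p in each direction, the 8 largest medium differences in each direction among genes averaging 5 CPM or more in some group, up to 3 members per list by p, and a set of glucose and lipid genes. Some genes that these rules pick are not reported here. Members named beyond this were chosen after their values were seen. The members and lists were chosen with earlier results of these data known. Intervals are 95% and cover the spread between libraries.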

Additional observations from a re-analysis of the deposited data

Results flagged for a closer look

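The treatment effect differed between the media, by the test of the difference itself in edgeR, in Celf4 (0.84 on the log2 scale, high minus normal glucose), Itm2c (-0.70), Ly6a (-0.81) and Cyp4v3 (-1.69).

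In 8 of 188 sets of values of a gene in the treated libraries of a medium, 1 library stood far from the others. Chance flags about 1 in 20 such sets. Among treated cells in high glucose, Mrps5 had 72.6 CPM in HG1_1, with the nearest library at 86.1. Gpnmb had 57.3 CPM in HG2_3 (nearest 42.9), which is the library deposited under 2 dose labels. Hmgcs1 had 177 CPM in HG3_1 (nearest 227), Rpl4 1997 CPM in HG1_2 (nearest 1530.4) and Dusp6 66.5 CPM in HG3_3 (nearest 51.0). Among treated cells in normal glucose, Plin4 had 8.22 CPM in NG1_3 (nearest 5.16), Atp6v0b 107 CPM in NG2_2 (nearest 130) and Pdgfrb 315 CPM in NG3_3 (nearest 282). None of the 8 genes was called for the interaction in edgeR.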

How the results depend on the processing

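Interaction calls numbered 49 with DESeq2 (24 up and 25 down), 39 without the low-count filter, 1 with the shared library left out (with or without 8 group means), 2 with limma sample weights and 2 without NG3_3 and HGC_2. A dose label alone gave 0 at each of the 3. Leaving out 1 library gave 0 (without HGC_2) to 20 (without NGC_3). With a replicate block the count was 4 or 1, for the shared library numbered 3 or 2: Celf4, Itm2c, Ly6a and 1700017B05Rik in one, without Cyp4v3, and Celf4 alone in the other. Of 70 pairs of libraries with the same number, 2 had deviations correlated above 0.1 (median 0.0086, highest 0.169). Among 141 pairs with other numbers it was 7 (median -0.00502, highest 0.14). Whether a number marks a shared culture or day was not tested, and neither was the cause of the differences in these counts.

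In 12 other fits over all dose labels, which include 8 group means and the fits without the shared library, Celf4 was called in 12 (0.72 to 0.85), Itm2c in 8 and Ly6a in 6, and Cyp4v3 in 5 of the 11 that gave it an adjusted p. Estimates of the 4 called genes kept their sign in every fit run. Some genes given here as not passing, by the main edgeR fit, passed the interaction test in other fits. With DESeq2 these included Wdr12, Nop14, Dkc1, Hsp90aa1, Scd2, Igfbp4, Ptgs2, Ankrd1, Inhba and Cxcl12. Without the low-count filter these included Nop58, Ddx21, Dkc1, Rpl4, Rpl13, Ptgs2 and Ankrd1. Treatment calls in normal glucose numbered 57 with DESeq2, 45 without the filter, 10 with limma weights, 8 without NG3_3 and HGC_2, and 0 with the shared library left out or with a replicate block (shared library numbered 3). Over fits without 1 library they ran from 0 to 9. In high glucose they numbered 3 without the filter and 0 in every fit without 1 library. Medium calls in controls ran from 165 to 379 over those fits, in treated cells from 1006 to 1334, and shrinking medium genes from 559 to 735, which is 44.3 to 50.3% of them.

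Among genes that were not called, 5 changed sign in some fit over all dose labels. Without 1 library the interaction ran from -0.30 to 0.16 for Card10, from -0.84 to 0.00401 for Gm17036, from -0.55 to 0.0178 for Gnpda1, from -0.0902 to 0.21 for Slc2a1 and from -0.14 to 0.33 for Txnip. Card10 was at 0.0407 with GC and length trends removed, and Gm17036 at 0.11 with limma weights and 0.10 without NG3_3 and HGC_2. Of the 45 uncalled genes named for their p, their medium difference or the glucose and lipid set, 9 had the other sign at some dose label alone, among them Cox6a2 (-0.51) and Arrdc4 (-0.14) at dose label 3. With 3 control libraries per medium, the standard error of an interaction had a median of 0.269. A difference had to be several times its standard error to pass. Ly6a passed at -0.81 ± 0.17 (SE), and Dda1 at -0.88 ± 0.19 did not. Interactions well above 0.269 could therefore go uncalled here.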

Other observations

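Amino acid supply genes gave mixed interaction estimates, none of which passed. Slc7a3, a cationic amino acid transporter, had 3.50, 5.96 and 8.06 CPM (lowest, median and highest) in treated cells in high glucose, against 1.71 to 4.32 CPM in controls, and 4.44, 8.20 and 11.8 CPM in treated cells in normal glucose, against 10.2 to 13.8 CPM in controls. Its control media lay far apart (-1.90, called) and its treated media overlapped (-0.45, not called), with an interaction of 1.45 (0.57 to 2.33; adjusted p = 0.216 in edgeR). The related transporter Slc7a2 went the other way, with medium differences of 0.40 in treated cells and 0.85 in controls and an interaction of -0.46 (-0.75 to -0.16). Asparagine synthetase Asns, a target of the integrated stress response, had 47.3, 54.8 and 61.4 CPM in treated cells in normal glucose, below all controls at 65.8 to 80.0 CPM, and an interaction of 0.54 (0.21 to 0.87). Ddit4, a stress-induced inhibitor of mTORC1, and Herpud1, of ER-associated degradation, had interactions of -0.72 and -0.56.

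Secreted and mechanical-response genes differed in direction among themselves. Ankrd1, a YAP target, had 121, 138 and 201 CPM in treated cells in high glucose and 65.4, 91.9 and 117 CPM in treated cells in normal glucose, with no overlap between the media. Its controls overlapped, at 104 to 130.2 CPM in high glucose and 104 to 186 CPM in normal glucose, and its interaction had a 95% interval of 0.47 to 1.54 (adjusted p = 0.193). The activin subunit gene Inhba also had treated media apart and control media overlapping (0.45 and -0.02), with an interaction of 0.47. The prostaglandin synthase gene Ptgs2 was lower in high glucose in controls (-1.09, called), with -0.27 in treated cells (not called) and an interaction of 0.82 (0.30 to 1.33; adjusted p = 0.275). The chemokine gene Cxcl12 was called higher in high glucose in both, by 0.50 in treated cells and 0.87 in controls, with an interaction of -0.38. Of 26 mitosis and spindle genes 10 were called lower in high glucose in treated cells (3.43% of all genes) and none in controls (0.386%), with medians of -0.19 and -0.21 and a median interaction of -0.01.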
